A study of Mus musculus with 9 samples.

Results

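The mRNA levels of 9 secreted ligands of the VEGF and angiopoietin families were followed in the mouse Lewis lung carcinoma line LLC, with and without an intact Cd47 gene. The members were chosen by name, as the rows of the deposited count table for Vegfa, Vegfb, Vegfc, Vegfd, Pgf, Angpt1, Angpt2, Angptl2 and Angptl4, and all 9 were found among the table's 50813 genes. The libraries came from luciferase-expressing LLC cells grown in culture without further treatment. Wild-type (WT) cells and the CD47 knockout (KO) clones E3 and E5 gave 3 libraries each, the clones having been grown out after electroporation with Cas9 and a guide to Cd47. Each KO is 1 clone and the WT is 1 line, so the effect of the knockout and other differences between clones cannot be told apart, and p-values measure the spread between cultures of these lines.

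The VEGF ligands are dimeric growth factors that signal through receptor tyrosine kinases on endothelial cells: VEGFA drives sprouting of blood vessels through VEGFR2, VEGFB and PGF bind VEGFR1, and VEGFC and VEGFD act on lymphatic vessels through VEGFR3. Angiopoietin 1 activates the endothelial receptor TIE2 and steadies vessels, and angiopoietin 2 opposes it in many settings. The angiopoietin-like proteins share the fold of the angiopoietins but do not act through TIE2. ANGPTL2 is a secreted factor linked to inflammation and tumour spread, and ANGPTL4 inhibits lipoprotein lipase. Tumour cells are a known source of several of these ligands, and the cells cultured here held no vessels.

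In clone E3 Vegfa and Pgf fell while Vegfb, Vegfc, Vegfd, Angpt1, Angpt2 and Angptl2 rose. In clone E5 Vegfa and Angptl4 fell while Vegfc and Angptl2 rose. Vegfa, Vegfc and Angptl2 therefore moved in the same direction against WT in both clones, as 8.48% of all tested genes did, whereas Angpt1 rose in E3 only and Angptl4 fell in E5 only, and for both of these genes the clones differed from each other by a direct test. These changes were tested with edgeR's quasi-likelihood test over 14593 genes, and a gene passed when its Benjamini-Hochberg adjusted p was under 0.05. By this rule 8 of the 9 ligands passed in E3, 6 higher and 2 lower, where 30.5% of all tested genes passed, 15.7% higher and 14.7% lower. In E5, 4 of the 9 passed, 2 higher and 2 lower, where 20.6% of genes passed, 8.96% higher and 11.7% lower. Pgf had entered the test only through the WT libraries, since all libraries of both clones were under the limit of 0.21 CPM, so that it had to differ. Without it the counts were 7 of 8 in E3 and 4 of 8 in E5. With an absolute log2 fold change above 1 as well, 5 of the 9 ligands passed in E3 (4 of 8 without Pgf), where 9.82% of genes did, and 2 of the 9 in E5 (2 of 8), where 8.21% did. The members were chosen with earlier results of these data known, so these counts describe them and cannot show an excess over all genes.

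The 250 bases upstream of the canonical transcript start are shown for the 3 ligands that passed in both clones, Vegfa, Vegfc and Angptl2, and for Angpt1 and Angptl4, whose levels differed most between the clones. They were read from the GRCm39 genome at the starts in the GENCODE M39 annotation and run 5′ to 3′ towards the gene. Capitals mark a GC box, the letters GGGCGG bound by SP1, or the core of a hypoxia response element, ACGTG or GCGTG, each searched on both strands.
Vegfa, chr17:46343310-46343559, minus strand: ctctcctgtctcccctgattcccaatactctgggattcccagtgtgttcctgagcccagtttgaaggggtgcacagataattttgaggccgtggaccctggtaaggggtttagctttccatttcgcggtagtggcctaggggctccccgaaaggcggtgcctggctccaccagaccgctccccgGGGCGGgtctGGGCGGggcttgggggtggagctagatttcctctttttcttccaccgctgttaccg
Vegfc, chr8:54530010-54530259, plus strand: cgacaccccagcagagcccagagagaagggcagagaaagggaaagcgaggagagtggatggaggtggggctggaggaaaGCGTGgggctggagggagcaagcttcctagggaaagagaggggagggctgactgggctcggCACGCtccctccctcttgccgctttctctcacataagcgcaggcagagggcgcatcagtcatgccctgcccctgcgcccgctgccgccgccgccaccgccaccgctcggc
Angptl2, chr2:33105696-33105945, plus strand: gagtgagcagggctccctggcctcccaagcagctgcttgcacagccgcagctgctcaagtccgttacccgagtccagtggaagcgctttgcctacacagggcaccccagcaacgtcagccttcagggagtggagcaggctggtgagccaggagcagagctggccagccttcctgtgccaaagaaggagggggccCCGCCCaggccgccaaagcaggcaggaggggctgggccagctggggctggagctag
Angpt1, chr15:42540418-42540667, minus strand: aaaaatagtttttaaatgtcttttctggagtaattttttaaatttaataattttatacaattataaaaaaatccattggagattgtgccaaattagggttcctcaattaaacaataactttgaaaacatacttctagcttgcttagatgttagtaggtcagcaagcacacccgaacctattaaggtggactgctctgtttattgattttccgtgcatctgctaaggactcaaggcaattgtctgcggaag
Angptl4, chr17:34000805-34001054, minus strand: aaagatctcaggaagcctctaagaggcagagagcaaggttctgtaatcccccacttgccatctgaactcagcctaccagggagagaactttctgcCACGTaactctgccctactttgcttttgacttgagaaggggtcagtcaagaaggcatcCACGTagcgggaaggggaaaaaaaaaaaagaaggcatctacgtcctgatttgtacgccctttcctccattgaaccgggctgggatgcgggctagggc
The Vegfa window held 2 GC boxes, at 66 to 61 and 56 to 51 bases upstream of the start, and no hypoxia core. The Vegfc window held 2 hypoxia cores and the Angptl4 window 2, the Angptl2 window held 1 GC box on the opposite strand, and the Angpt1 window held none of these letters. Over all 9 ligands, 5 windows held a hypoxia core and 4 a GC box. Of 21770 windows of the same length from protein-coding genes, 41.3% held a hypoxia core and 36.3% a GC box. The letters TGACTCA of an AP-1 site and TGACGTCA of a cAMP response element were in none of the 9 windows, against 4.02% and 1.69% of all windows. The EGR1 letters GCGGGGGCG, which overlap GC boxes, were in the Vegfb window and in 2.39% of all. The windows differed in base composition, with 59.6% G or C for Vegfa, 67.2% for Vegfc, 66.8% for Angptl2, 51.2% for Angptl4 and 32.8% for Angpt1, against a median of 53.2%. A match to a motif is a description of the letters and was not tested for binding. Sites outside these 250 bases were not searched, so a window without a motif does not mean a gene without one.

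Total counts per library were 44257404 to 55095219. Cd47 had 179 to 187 CPM (reads scaled to a common library total) in WT, 36.7 to 49.6 CPM in E3 and 15.5 to 18.6 CPM in E5, so the libraries matched their labels. Replicate 3 of clone E3 stood apart from replicates 1 and 2 of that clone. Chi-square per degree of freedom was 192 over 14028 genes and 232 over 13966 genes for its pairs with them. It was 30.9 for E3 replicates 1 and 2, and 4.82 to 39.1 for the pairs within WT and within E5. Of the mesenchymal markers of the line, Vim had a mean of 4166 CPM and Cdh2 of 26.4 CPM in WT. Of the epithelial markers, Epcam was at 0 and Cdh1 at no more than 6 counts in any library, but the keratin genes Krt8 and Krt18 were expressed, at 191 and 264 CPM in WT. Of 11 endothelial markers, 5 were at 0 in every library, Pecam1 and Cdh5 had at most 5 counts in any library, and the summed level was 0.962 to 1.11 CPM in WT, 2.01 to 2.40 CPM in E3 and 0.846 to 0.980 CPM in E5. The rise of that sum in E3 moved with Plvap, at 0.693 CPM in WT and 1.76 CPM in E3, and its part in the results for E3 was not tested. Of 7 macrophage markers, Ptprc, Adgre1, Csf1r, Itgam and Aif1 had at most 2 counts in any library. Cd68 had 109 to 159 counts in every library, and Lyz2 had 7 to 19 in WT, 16 to 21 in E3 and 0 to 2 in E5. Because each library is a bulk lysate, fewer cells with a transcript and less of it per cell cannot be told apart.

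To compare levels between ligands, CPM were divided by the merged exon length in kilobases. On this scale Vegfa was the most abundant of the 9 in WT at 41.7 ± 0.779 (SD, n = 3), followed by Vegfb at 27.0 ± 1.69 and Angptl2 at 8.46 ± 1.39. Vegfd was at 2.31 ± 0.474, Angptl4 at 1.26 ± 0.386, Vegfc at 0.919 ± 0.231 and Angpt2 at 0.914 ± 0.0615. Angpt1, at 0.144 ± 0.0175, and Pgf, at 0.109 ± 0.0243, were the least abundant. The WT ranges of Angptl4 and Vegfc overlapped, as did those of Vegfc and Angpt2, and the other neighbours in this order did not. In terms of all tested genes, Vegfa in WT lay at the 94.6th percentile and Angpt1 at the 10.5th.

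On the scale of merged exon length Vegfb stood above Vegfa in E3, and in E5 their ranges overlapped. In E3 Vegfb stood at 37.5 ± 7.81 per kilobase against 16.2 ± 2.91 for Vegfa, with no overlap between their libraries. In E5 the values were 27.6 ± 1.09 for Vegfb, 27.2 ± 4.38 for Vegfa and 22.5 ± 1.57 for Angptl2, and the ranges of Vegfa and Angptl2 overlapped too. Vegfa was above Vegfb in E5 replicates 2 and 3, at 28.8 and 30.6 against 27.9 and 28.6, and below it in replicate 1, at 22.3 against 26.4. The order in E5 depended on the length used. With the length of the canonical transcript, Vegfb ran from 45.5 to 49.2 in E5 and Angptl2 from 39.6 to 45.3. Both lay above Vegfa, at 27.6 to 37.9. Without division by length, Vegfa ran from 95.7 to 131 CPM in E5, above Vegfb at 86.1 to 93.0 CPM. Angpt1 was at 0.850 ± 0.147 in E3 and 0.114 ± 0.0323 in E5.

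Among the 5 VEGF ligands, Vegfa made up most of the pool in WT and Vegfb most of it in E3. Vegfa accounted for 57.8% ± 0.747 (SD, n = 3) of their summed length-scaled level in WT, 26.4% ± 4.15 in E3 and 45.2% ± 3.79 in E5. Vegfb took 37.5% ± 1.64, 60.7% ± 4.29 and 46.2% ± 2.06. The lymphatic ligands were minor parts: Vegfd had 3.21% ± 0.717 in WT, 8.18% ± 1.82 in E3 and 5.64% ± 1.62 in E5, and Vegfc had 1.28% ± 0.339, 4.67% ± 0.348 and 2.83% ± 0.220. Pgf stayed at or under 0.152% as a group mean. The sum of the 5 was 72.1 ± 1.498 per kilobase in WT, 61.5 ± 9.17 in E3 and 59.9 ± 4.86 in E5. Its libraries ran from 70.9 to 73.8 in WT, from 53.5 to 71.5 in E3 and from 54.4 to 63.5 in E5, so E3 overlapped WT and E5 did not. These shares are descriptions with no test, and they depend on the length used for each gene.

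**Figure D1:**
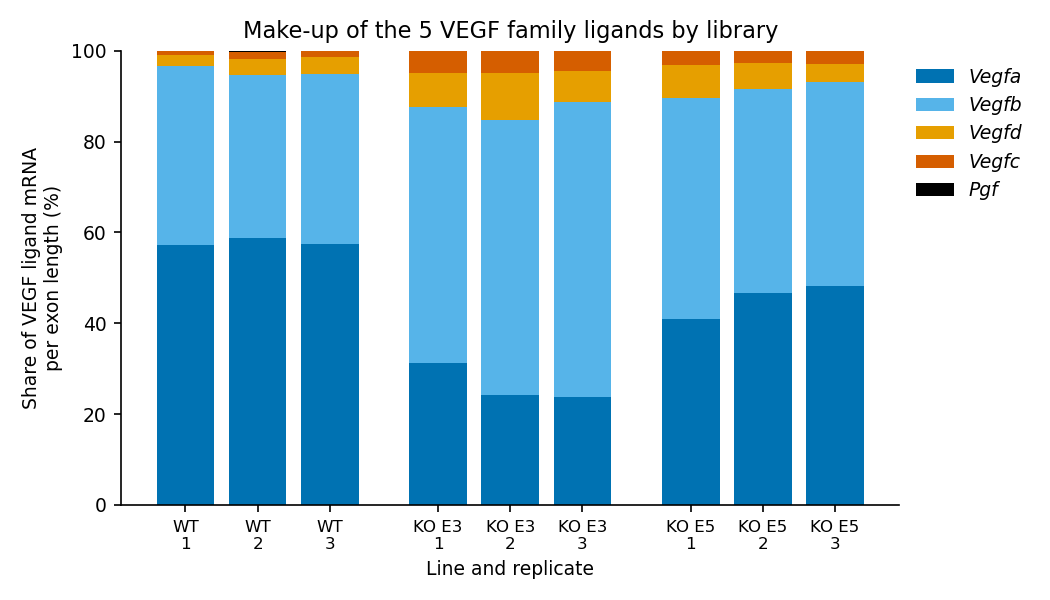
Share in percent of each VEGF family ligand in the summed length-scaled level of the 5 ligands (stacked bars), for each library of WT, KO E3 and KO E5. Vegfa makes up a mean of 57.8% in WT, 26.4% in E3 and 45.2% in E5, and Vegfb 37.5%, 60.7% and 46.2%. A share can rise without a rise in level: Vegfb was at 27.0 per kilobase in WT and 27.6 in E5.

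Vegfa (ENSMUSG00000023951.19; chr17:46327919-46343295, minus strand), which encodes the principal growth factor for blood vessels, had 182, 180.4 and 175 CPM in the WT libraries. It had 79.9, 55.7 and 73.1 CPM in E3 and 95.7, 124 and 131 CPM in E5. All 6 KO libraries were below all 3 WT libraries, and the 3 lines did not overlap. The fall was 2.58-fold in E3, with a log2 fold change of -1.37 ± 0.15 (SE; edgeR adjusted p = 0.000155), and 1.53-fold in E5, at -0.61 ± 0.15 (adjusted p = 0.01603). The clones differed by 0.75 ± 0.15 on the log2 scale, E5 being the higher (adjusted p = 0.003965). The E5 call was lost without WT replicate 1, WT replicate 2 or KO E5 replicate 1, with log2 fold changes of -0.61, -0.61 and -0.49 and adjusted p of 0.05332, 0.05477 and 0.06424.

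Vegfb (ENSMUSG00000024962.14; chr19:6959841-6965019, minus strand), a ligand of VEGFR1 known for roles in cell survival and lipid handling, had 94.3, 83.8 and 86.1 CPM in WT. The E3 libraries held 110, 106 and 151 CPM and the E5 libraries 86.1, 90.8 and 93.0 CPM. The E3 libraries were all above WT, with replicate 3 well above the other two, while E5 lay within the WT range. Vegfb rose in E3 by a log2 fold change of 0.47 ± 0.14 (adjusted p = 0.02386). In E5 the value was 0.03, with a 95% interval of -0.27 to 0.33 (adjusted p = 0.9053). The E3 call was lost without WT replicate 2 or WT replicate 3, at log2 fold changes of 0.43 and 0.45 and adjusted p of 0.09604 and 0.08313, and without KO E3 replicate 3 the call held at a smaller log2 fold change of 0.29 (adjusted p = 0.005537).

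Vegfc (ENSMUSG00000031520.7; chr8:54530641-54640131, plus strand), the main lymphatic growth factor, had 1.94, 3.26 and 2.68 CPM in WT. It had 8.34, 7.42 and 8.73 CPM in E3 and 4.78, 4.68 and 5.03 CPM in E5. The lines formed 3 separate groups, with E3 highest and WT lowest. Vegfc rose 3.11-fold in E3, at a log2 fold change of 1.64 ± 0.18 (adjusted p = 0.0001284), and 1.84-fold in E5, at 0.88 ± 0.18 (adjusted p = 0.005998). The difference between the clones was -0.76 ± 0.17 in E5 against E3 (adjusted p = 0.007268).

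Vegfd (ENSMUSG00000031380.11; chrX:163156374-163185646, plus strand), the closest relative of Vegfc, had 5.03, 7.19 and 7.51 CPM in WT. It had 12.7, 15.6 and 13.9 CPM in E3 and 11.3, 9.93 and 7.29 CPM in E5. E3 lay above both other lines, and the lowest E5 library fell within the WT range. Vegfd rose 2.14-fold in E3 at a log2 fold change of 1.10 ± 0.19 (adjusted p = 0.002). In E5 the value was 0.53 ± 0.19, with a 95% interval of 0.098 to 0.96 (adjusted p = 0.08094), and it passed without KO E3 replicate 3 (0.53, adjusted p = 0.03085) or without KO E5 replicate 3 (0.69, adjusted p = 0.03499).

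Pgf (ENSMUSG00000004791.8; chr12:85213409-85224564, minus strand), which encodes placental growth factor, was near the detection limit. The WT libraries had 12, 18 and 16 counts, the E3 libraries 3, 4 and 8 and the E5 libraries 8, 5 and 8. The WT libraries were the highest, and the clones overlapped each other. Pgf had entered the test only through the WT libraries, so lower values in the clones were fixed by the filter. Its calls are therefore no evidence of a fall. Clone E3 had a fitted log2 fold change of -1.57 ± 0.42 (adjusted p = 0.01787), and clone E5 one of -1.14 ± 0.40 (adjusted p = 0.0687). The E3 call was lost without WT replicate 2 or 3 or KO E3 replicate 1 or 2, at adjusted p of 0.07331, 0.05834, 0.06178 and 0.05054, and the E5 value passed without KO E3 replicate 3 (adjusted p = 0.02847).

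**Figure D2:**
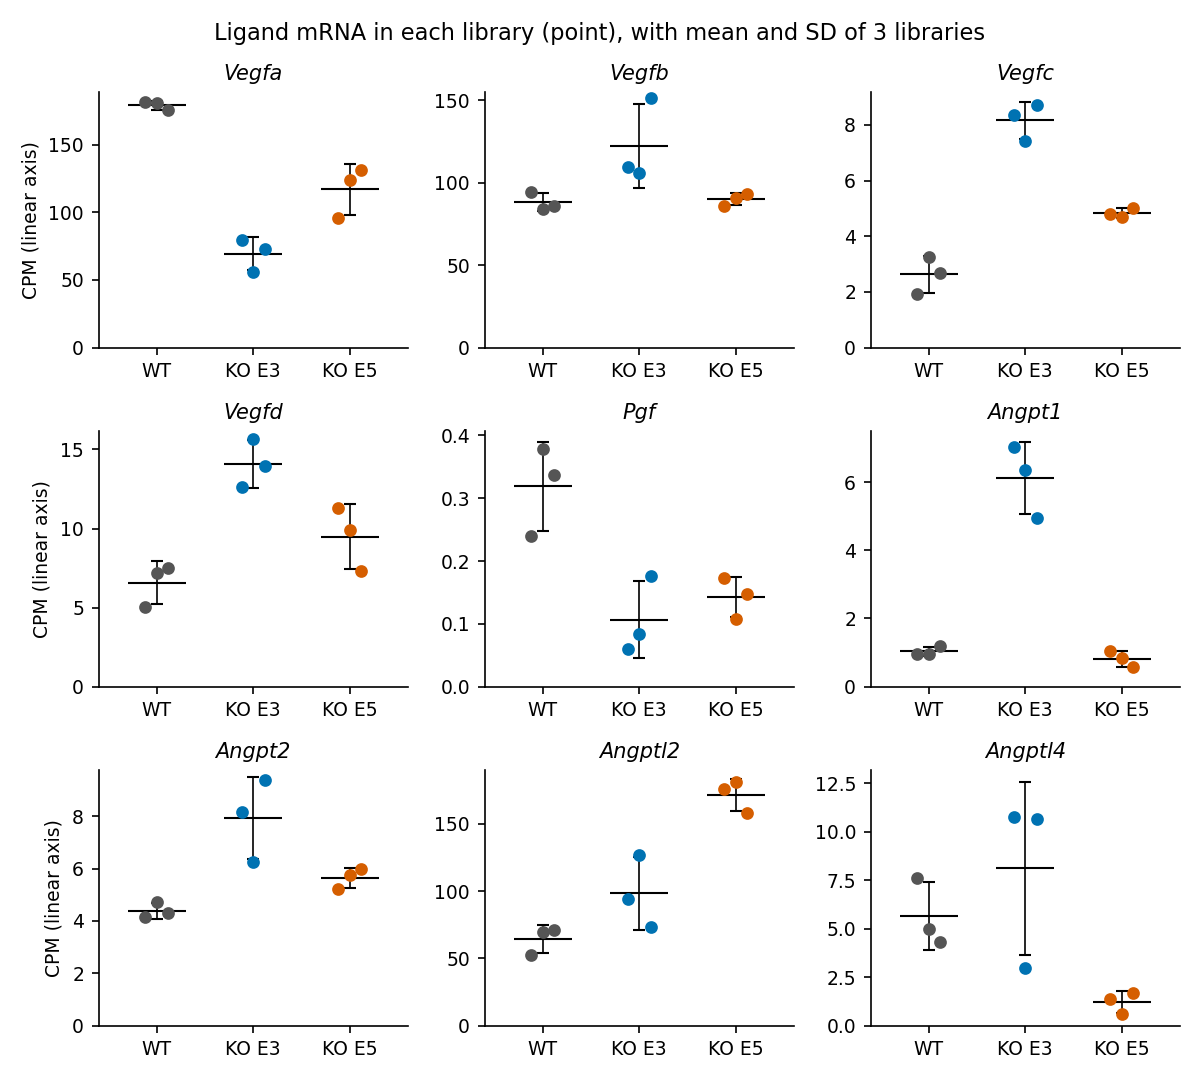
CPM of the 9 ligands in each library (points, linear axis from 0), with the mean and SD of the 3 libraries of WT, KO E3 and KO E5. Vegfa is highest in WT, Angpt1 is highest in E3 (4.95 to 7.02 CPM), and Angptl4 is lowest in E5 (0.607 to 1.70 CPM).

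Angpt1 (ENSMUSG00000022309.10; chr15:42288119-42540373, minus strand), the gene of the TIE2 agonist, had 0.962, 0.968 and 1.18 CPM in WT. It had 7.02, 6.36 and 4.95 CPM in E3 and 1.03, 0.846 and 0.573 CPM in E5. Every E3 library was above every library of the other lines, and WT and E5 overlapped. Angpt1 rose 5.88-fold in E3, at a log2 fold change of 2.56 ± 0.23 (adjusted p = 3.83e-05), the largest fold of the 9 ligands in that clone. In E5 the value was -0.35, with a 95% interval of -0.90 to 0.20 (adjusted p = 0.3677). The direct comparison put E5 7.50-fold below E3, at -2.91 ± 0.23 (adjusted p = 8.95e-06). In the annotation 11.3% of the exon bases of Angpt1 lie antisense to another gene, Gm17473. That gene had 0 counts in every WT library and at most 2 in any KO library.

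Angpt2 (ENSMUSG00000031465.7; chr8:18740279-18791578, minus strand), the gene of the context-dependent TIE2 antagonist, had 4.15, 4.71 and 4.28 CPM in WT. It had 8.16, 6.25 and 9.37 CPM in E3 and 5.21, 5.75 and 5.97 CPM in E5. The lines did not overlap, with E3 highest. Angpt2 rose 1.81-fold in E3, at a log2 fold change of 0.85 ± 0.16 (adjusted p = 0.002578). In E5 the value was 0.37 ± 0.16 (adjusted p = 0.1343), which passed without KO E3 replicate 3 (adjusted p = 0.03265). Of the Angpt2 exon bases, 70.7% lie antisense to Mcph1, which was at 68.6, 65.5 and 83.5 CPM in WT, E3 and E5. The strand setting of the count is not given in the sources used here, so reads of Angpt2 and Mcph1 cannot be told apart. For Mcph1 itself the E3 value was -0.07 on the log2 scale (adjusted p = 0.695) and the E5 value 0.28 (adjusted p = 0.109).

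The length-scaled level of Angpt2 relative to Angpt1 was 6.40 ± 0.935 (SD, n = 3) in WT, 2.02 ± 0.723 in E3 and 11.1 ± 4.11 in E5. Both angiopoietins were higher in E3, Angpt1 by the larger factor. The ratio carries the uncertainty of the Angpt2 count.

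Angptl2 (ENSMUSG00000004105.9; chr2:33106081-33137729, plus strand) had 52.2, 69.9 and 71.0 CPM in WT. It had 94.3, 127 and 73.6 CPM in E3 and 176, 181 and 158 CPM in E5. E5 lay above E3 and E3 above WT without overlap, although the lowest E3 library was close to the highest WT library. Angptl2 rose 2.66-fold in E5, at a log2 fold change of 1.41 ± 0.19 (adjusted p = 0.0004953), and 1.53-fold in E3, at 0.61 ± 0.19 (adjusted p = 0.0325). The clones differed by 0.80 ± 0.19 (adjusted p = 0.008765). The E3 call was lost when any of 7 libraries was left out: WT replicates 1, 2 and 3 (adjusted p = 0.1277, 0.06698 and 0.06048), KO E3 replicates 1 and 2 (0.06019 and 0.09736) and KO E5 replicates 1 and 2 (0.05231 and 0.05244). Without WT replicate 1 the log2 fold change in E3 was 0.48 and without KO E3 replicate 2 it was 0.38. Angptl2 lies in an intron of Ralgps1 on the opposite strand, shares no exon bases with it, and was far above its 2.04, 3.36 and 1.90 CPM.

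Angptl4 (ENSMUSG00000002289.17; chr17:33992724-34000804, minus strand), a known target of PPARs and of hypoxia-inducible factors (HIFs), had 7.61, 5.01 and 4.33 CPM in WT. It had 10.7, 2.96 and 10.6 CPM in E3 and 1.36, 0.607 and 1.70 CPM in E5. E5 lay below all other libraries, while E3 held both the highest and, in its second library, a value below WT. Angptl4 fell 4.58-fold in E5, at a log2 fold change of -2.20 ± 0.50 (adjusted p = 0.01118). In E3 the value was 0.52, with a 95% interval of -0.47 to 1.52 (adjusted p = 0.4153), and it ranged with 1 library left out from 0.26 without KO E3 replicate 1 and 0.27 without KO E3 replicate 3 to 0.79 without WT replicate 1 and 0.91 without KO E3 replicate 2 (adjusted p = 0.7344, 0.6425, 0.3121 and 0.05182). E5 was 6.57-fold below E3, at -2.72 ± 0.50 (adjusted p = 0.002442).

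**Figure D3:**
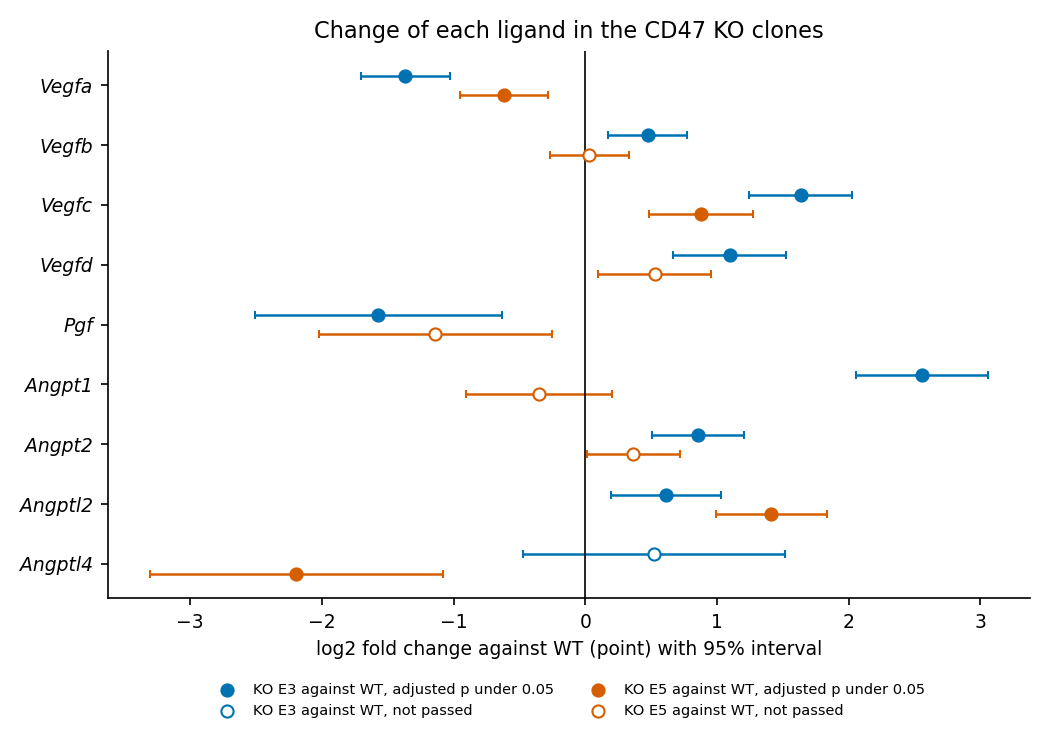
Log2 fold change of each ligand against WT (points) with its 95% interval (lines) in KO E3 and KO E5. Filled points passed at an adjusted p under 0.05: 8 of 9 in E3 and 4 of 9 in E5. The 8 include Pgf, which had entered the test only through the WT libraries. Vegfa lies left of 0 and Vegfc and Angptl2 right of 0 in both clones.

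The clones were then compared directly. By the test of E5 against E3, 8 of the 9 ligands passed, where 31.9% of tested genes did (14.7% higher and 17.2% lower), and the exception was Pgf at 0.43 (adjusted p = 0.5225). This count too describes ligands chosen with earlier results of these data known. Vegfa and Angptl2 were higher in E5, and Vegfb, Vegfc, Vegfd, Angpt1, Angpt2 and Angptl4 were lower. With an absolute log2 fold change above 1, Angpt1 and Angptl4 remained, where 11% of genes passed. The remaining values were -0.44 for Vegfb (adjusted p = 0.03069), -0.57 for Vegfd (adjusted p = 0.04343) and -0.49 for Angpt2 (adjusted p = 0.03567). These 3 calls were fragile. That of Vegfb was lost when any E5 library was left out (adjusted p = 0.09321, 0.08461 and 0.07123 without replicates 1, 2 and 3), and without KO E3 replicate 3 it held at a smaller -0.25 (adjusted p = 0.01154). That of Vegfd was lost without WT replicate 2 or 3, KO E3 replicate 1 or 2 or KO E5 replicate 2 or 3, with adjusted p of up to 0.1543. That of Angpt2 was lost without each WT and each E5 library in turn and without KO E3 replicate 1 or 3, with adjusted p of up to 0.1089. Library by library, the ranges of E3 and WT did not overlap for 8 of the 9 ligands (45.4% of all genes), those of E5 and WT for 6 (55.4%), and those of E5 and E3 for 8 (44.6%). Both counts against WT include Pgf, whose separation from WT was fixed by the filter, since it had entered only through the WT libraries.

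The number of ligands that passed depended on the libraries. In E3 against WT it was 8 without the divergent KO E3 replicate 3, where 43.2% of all genes passed, and 5 without WT replicate 2 or without WT replicate 3, where 19.3% and 20.1% did. In E5 against WT it was 7 without KO E3 replicate 3, where 42% of all genes passed, with Vegfd, Pgf and Angpt2 added. That library enters the test only through the shared estimate of the spread. Where Pgf is counted against WT, it had entered only through the WT libraries. In E5 against E3 it was 5 without KO E5 replicate 2 or without KO E5 replicate 3, where 21.7% and 22.8% of all genes passed.

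Further related ligands that are not among the 9, among them the platelet-derived growth factors, were mostly silent. Of 10 such genes 3 were tested, Angptl6, Pdgfa and Pdgfc, and among the others Angpt4, Angptl1, Angptl7, Angptl8, Pdgfb and Pdgfd had at most 6 counts in any library. Angptl6, an angiopoietin-like factor, fell from 18.3 CPM in WT to 1.60 CPM in E3 and 3.64 CPM in E5, at log2 fold changes of -3.52 (adjusted p = 0.000179) and -2.32 (adjusted p = 0.00155). Pdgfa, a growth factor of mesenchymal cells, rose in E3 by 0.60 and fell in E5 by 0.82 on the log2 scale. Pdgfc rose by 0.32 in E3 and by 1.27 in E5, from 44.2 CPM to 55.3 and 106 CPM. Neither rise in E3 passed without WT replicate 1, 2 or 3, and 1 of the 2 passed without KO E5 replicate 1, 2 or 3. Of the 2 falls in E5, of Angptl6 and Pdgfa, 1 passed without WT replicate 1 or 3 or KO E5 replicate 2 or 3.

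Most receptors of these ligands were near the detection limit in the cells. Of 12 receptor genes 5 were tested, all named here whatever their change. Kdr and Flt4, which encode VEGFR2 and VEGFR3, Tek and Tie1, which encode the angiopoietin receptors, Ptprb, Itga9 and Pirb had at most 5 counts in any library. Flt1, which encodes VEGFR1, had 13.7 CPM in WT, 11.4 CPM in E3 and 8.94 CPM in E5, with no call in either clone (adjusted p = 0.384 and 0.0643). Nrp1, a co-receptor for VEGFA, rose in E3 from 8.995 to 25.2 CPM, at a log2 fold change of 1.49 (adjusted p = 0.00395), and was at 13.96 CPM in E5 (adjusted p = 0.162). Nrp2, a co-receptor of the lymphatic ligands, was the more abundant at 296, 245 and 435 CPM, and passed only between the clones (0.83, adjusted p = 0.0249). Itga5 and Itgb1, which form the integrin bound by ANGPTL2, lay at 0.0029 and -0.05 on the log2 scale in E3 and at -0.0039 and -0.07 in E5, and neither passed.

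Genes that process or bind the ligands moved in both directions. Of 18 such genes 15 were tested, 3 rose and 3 fell in E3, and 1 rose and 4 fell in E5, with medians of 0.07 and -0.28 against 0.01 and -0.0023 over all genes. Without KO E3 replicate 3 the counts were 6 and 4 in E3 and 2 and 8 in E5. The 1 rise in E5 was lost when any WT or E5 library was left out. Adamts14, a relative of the protease that matures VEGFC, fell in both clones, from 161 CPM to 53.8 and 71.2 CPM, at log2 fold changes of -1.58 (adjusted p = 2.35e-05) and -1.18 (adjusted p = 0.000112). Plau, the urokinase that activates plasmin, fell by 0.69 in E3 and by 1.47 in E5. Sparc and Thbs1, matrix proteins that bind or restrain VEGFA, rose in E3 by 1.30 and 1.27 and were at 0.06 and 0.12 in E5. Ccbe1, the cofactor of VEGFC maturation, rose in E5 by 0.74 (adjusted p = 0.0384). Adamts3, the protease of that step, was chosen after its values were seen: it had 43 to 58 counts in the WT libraries, 25 to 96 in E3 and 0 to 1 in E5.

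Transcription and hypoxia regulators of these ligands were also listed. Of 20 regulators 16 were tested, 3 rose and 3 fell in E3, and 3 rose and none fell in E5, with medians of 0.06 and 0.11. Without KO E3 replicate 3 5 rose and 4 fell in E3, and 6 rose and 1 fell in E5. Only 1 rose in E3 without WT replicate 2 or 3, and in E5 0 rose without WT replicate 2 or 3 or KO E5 replicate 2, and 1 without WT replicate 1 or KO E5 replicate 1 or 3. Hif1a, the inducible subunit of the hypoxia factor, had 473, 323 and 484 CPM in WT, E3 and E5 and fell in E3 by 0.55 (adjusted p = 0.0174), a gene named after its values were seen. Atf4, a stress factor that acts on the VEGFA gene, fell in E3 from 719 to 405 CPM, at -0.83 (adjusted p = 0.00200), and was at 651 CPM in E5. Pparg, a regulator of ANGPTL4, fell in E3 by 0.87 (adjusted p = 0.00251) and was at 0.26 in E5 (adjusted p = 0.271). Foxo1, a factor that acts on angiopoietin 2, rose in E3 by 0.52 (adjusted p = 0.0239). Egln1, a hydroxylase that marks HIF for loss, rose by 0.41 in E3 and 0.36 in E5, and Egln3, of the same family, rose by 0.36 in E5.

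Other HIF target genes were set beside Vegfa. Of 20 listed genes 19 were analysed here. In E3, 8 fell and 2 rose, with a median log2 fold change of -0.40 against 0.01 over all genes. In E5, 4 fell and 4 rose, with a median of -0.12 against -0.0023. Without KO E3 replicate 3 9 fell and 2 rose in E3, and 8 fell and 5 rose in E5. With any 1 library left out, 7 to 9 fell and 2 to 3 rose in E3. In E5, 1 to 8 fell and 2 to 5 rose, with 1 falling without WT replicate 1 or KO E5 replicate 1, and 2 rising without WT replicate 2 or 3 or KO E5 replicate 1 or 2. Ero1a, an oxidase of protein folding, had the most negative value of the list in E3, with means of 361 CPM in WT, 107 CPM in E3 and 215 CPM in E5, with log2 fold changes of -1.75 (adjusted p = 8.06e-05) and -0.75 (adjusted p = 0.0117). Hk2, which starts glycolysis, fell in E3 by 1.46. Slc2a1, the glucose transporter GLUT1, fell by 0.99 in E3 and by 0.53 in E5, and P4ha1, a collagen hydroxylase, by 0.80 and 0.32, both genes chosen after their values were seen. Adm, the vessel-dilating peptide adrenomedullin, rose in E3 by 0.94 and fell in E5 by 0.75. Pfkfb4, a regulator of glycolysis, rose in E3 by 0.58, and Ankrd37 rose in E5 by 1.00. Pfkp, a glycolytic enzyme, fell by 0.68 in E3 and rose by 0.73 in E5. Pgk1 and Ddit4, also named after their values were seen, rose in E5 by 0.60 (adjusted p = 0.00471) and 0.56 (adjusted p = 0.0235). In E3 they were at -0.10 and -0.40, and neither passed. The part of HIF in the level of Vegfa was not tested.

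**Figure D4:**
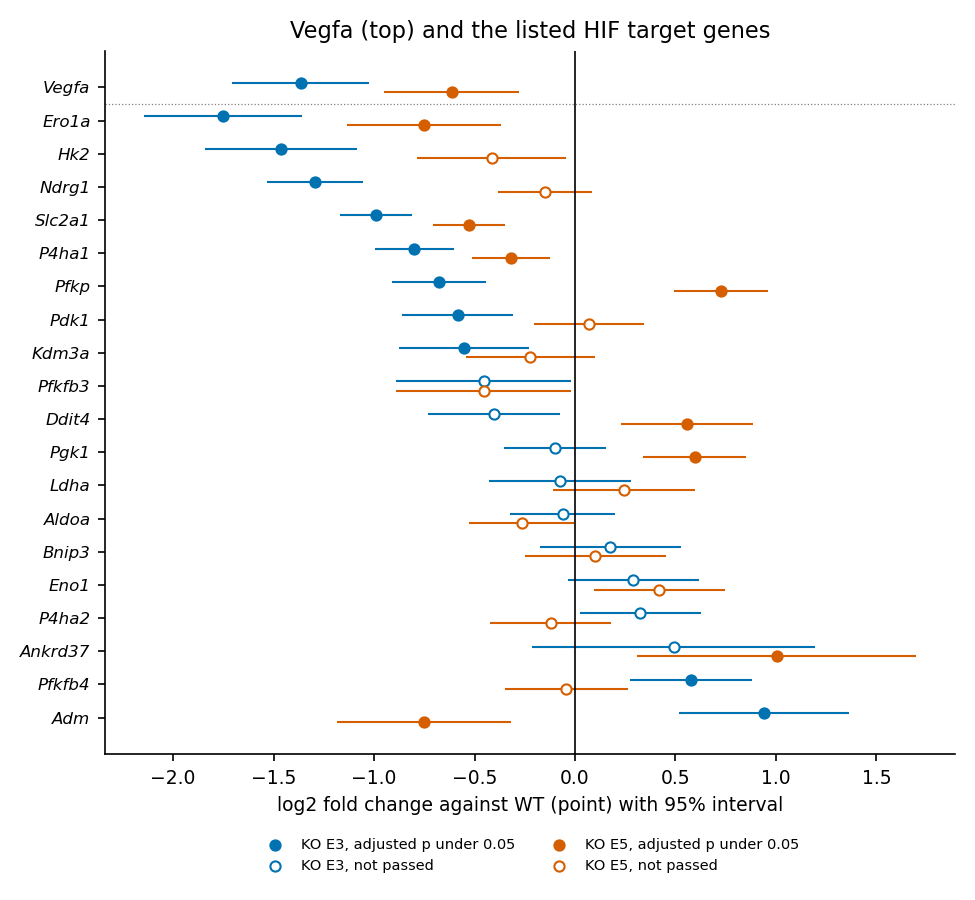
Log2 fold change against WT (points) with 95% intervals (lines) for Vegfa, above the dotted line, and the 19 HIF target genes analysed, ordered by their value in KO E3. Filled points passed at an adjusted p under 0.05. Ero1a, Slc2a1 and P4ha1 fell in both clones, as Vegfa did, and Pfkp fell in E3 and rose in E5. Pgk1, Ddit4 and Ankrd37 also rose in E5.

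Angptl4 was set beside PPAR target genes and the lipase it inhibits. Of 15 PPAR targets 10 were tested, 5 rose and 1 fell in E3, and 1 rose and 1 fell in E5, with medians of 0.29 and 0.06. Without KO E3 replicate 3 6 rose and 1 fell in E3, and 3 rose and 3 fell in E5. Without WT replicate 2 or 3, 3 rose in E3, and without KO E3 replicate 2, 2 rose and 3 fell in E5. Plin2, a coat protein of lipid droplets, fell in E5 from 232 to 98.4 CPM, at -1.24 (adjusted p = 0.00385). Cpt1a, which admits fatty acids to mitochondria, rose in E3 by 0.85 and was at 0.04 in E5. Acaa2, of fatty acid oxidation, rose by 0.74 in E3 and 0.73 in E5, and Fgf21 fell in E3 by 2.62. The part of PPARs in the level of Angptl4 was not tested. Of 8 genes of the lipase system 4 were tested. Lpl, which encodes lipoprotein lipase, rose in both clones from 4.77 CPM to 16.6 CPM in E3 and 11.8 CPM in E5, at log2 fold changes of 1.80 (adjusted p = 1.78e-05) and 1.30 (adjusted p = 9.56e-05). Sel1l, needed for lipase export, fell in E3 by 0.87. Gpihbp1, which holds the lipase on capillary walls, had 0 counts in every library.

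The genes whose log2 CPM tracked each ligand that passed in both clones were sought among 10932 genes, as a description over 9 libraries that share 3 lines. Nearest to Vegfa were Enpp2, which encodes autotaxin (Pearson's r = 0.9921), Zbtb7b (0.9912) and Ddit3, which encodes the stress factor CHOP (0.9894). On the log2 scale Enpp2 stood at -3.32 in E3 and -1.51 in E5, and Ddit3 at -2.53 and -1.16. Nearest to Vegfc were Ttc39c (0.9703), Fah (0.9687) and Tef (0.9682), and among the nearest to Angptl2 were Traf3ip1 (0.9838) and Apcdd1 (0.9787). With so few lines a high r was common: 339 genes exceeded 0.9 with Vegfa, 182 with Vegfc and 171 with Angptl2.

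The tested genes within 1 Mb of each ligand were described to show whether a ligand moved with its region. Around Vegfa the median log2 fold change in E3 was 0.245 over 45 genes, opposite in sign to Vegfa. Around Vegfc it was 0.738 in E3 over 4 genes, of which 3 rose, and -0.11 in E5. Around Vegfb it was 0.379 in E3 over 64 genes, of which 23 rose, beside 0.47 for Vegfb itself. Around Angpt1 none of 4 genes passed in E3, and the median was 0.138. Around Angptl2 the median was 0.124 in E3, where 11 of 36 genes rose and 3 fell, and -0.04 in E5. Within 250 kb of Angptl2 it was 0.542 in E3 over 5 genes, of which 3 rose, beside 0.61 for Angptl2 itself. Around Angptl4 the median within 1 Mb in E5 was 0.07 over 67 genes. In E5 the medians around all 9 ligands lay between -0.11 and 0.236.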

How the data were processed

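RNA-seq counts of 9 libraries, 3 for each of WT, KO E3 and KO E5 LLC cells, were grouped by their labels. The authors sequenced a directional poly(A) library of each culture in paired-end mode. Reads were quality-checked (FastQC), trimmed (Trimmomatic) and aligned to GRCm39 (STAR), and the authors deposited the raw count of each gene in each library. Which program counted the reads, with which strand setting and annotation, is not given in the sources used here. Gene positions are those of the deposited table, whose gene ends differ slightly from the transcript starts in GENCODE M39, the source of exon lengths and upstream windows.

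The 3 lines were fitted together with edgeR 4.0.16 (R 4.3.3), with TMM scaling and quasi-likelihood F tests. The filterByExpr step (at least 10 counts, total of 15) kept 14593 of 50813 genes, over which p-values were adjusted. As in the paper's methods the FDR had to be under 0.05, with and without a minimum absolute log2 change of 1. The SE of a log2 fold change is its size divided by the root of F. CPM use TMM-scaled totals. The biological coefficient of variation was 14.8%. Depth was 44257404 to 55095219 counts per library, and 3 counts per library were taken as the detection limit, which covers counting error only. The test was first run on simulated counts with known changes.

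The members and lists were chosen with earlier results of these data known. Beside the members, the rule named from each list the genes past both thresholds in both clones, and per clone the 2 most negative and 2 most positive passing genes with an average log2 CPM above 1, of which a few are not reported here. Where 2 rows shared a symbol, the row with more counts was used. The alternatives were DESeq2 1.42.0, edgeR with DESeq2's size factors or with upper-quartile scaling, no filter, a minimum of 10 counts throughout, a fit of only 2 groups, a block for the replicate number, and leaving out 1 library. Counts per list without each library were added after the data were seen.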

Additional observations from a re-analysis of the deposited data

Results flagged for a closer look

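The KO clones differed from each other for 8 of the 9 ligands by the direct edgeR test of E5 against E3, with 3 libraries a line. Each KO is 1 clone, so a difference in the effect of the knockout and other differences between the clones cannot be told apart. On the log2 scale the change in E5 minus that in E3 was 0.75 for Vegfa (adjusted p = 0.003965) and 0.80 for Angptl2 (adjusted p = 0.008765). It was -0.44 for Vegfb (adjusted p = 0.03069), -0.76 for Vegfc (adjusted p = 0.007268), -0.57 for Vegfd (adjusted p = 0.04343) and -0.49 for Angpt2 (adjusted p = 0.03567). The calls of Vegfb, Vegfd and Angpt2 were fragile and held under 12, 8 and 6 of 16 alternatives. The widest differences were those of Angpt1, at -2.91 (adjusted p = 8.95e-06), and Angptl4, at -2.72 (adjusted p = 0.002442). For Vegfa and Vegfc the change against WT had the same sign in both clones and was the smaller in E5, and for Angptl2 it was the larger in E5. Over all tested genes 31.9% passed in the same comparison. The ligands were chosen with earlier results of these data known. Groups of 3 libraries were not searched for single outlying values of a ligand.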

How the results depend on the processing

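Of 428 alternative values of the ligands' log2 fold changes, 379 kept their direction and their side of the threshold, 40 kept the direction but no longer passed, 8 newly passed and 1 changed sign. The change of sign was Vegfb in E5 against WT, which was 0.03 and ran from -0.0079 without WT replicate 2 to 0.0798 without WT replicate 1, with no call either way. Under all alternatives the calls held for Vegfa, Vegfc, Vegfd, Angpt1 and Angpt2 in E3, for Vegfc, Angptl2 and Angptl4 in E5, and for Vegfa, Vegfc, Angpt1, Angptl2 and Angptl4 between the clones. Leaving out 1 library at a time, the ligands that passed numbered 5 to 8 in E3, 3 to 7 in E5 and 5 to 7 between the clones. Where Pgf is counted against WT, it had entered the test only through the WT libraries. With only the 2 groups compared, the ligands that passed numbered 6 in E3, 7 in E5 and 5 between the clones. The fit then estimates the spread without the other line, and 6596 of all genes passed in E5 against 3012 in the fit of all lines. Without KO E3 replicate 3, 6423 genes passed in E3 against 4445, and 6246 in E5.

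The replicate numbers did not pair the samples: the correlations of deviations between libraries of the same number ran from -0.172 to 0.0472 over 9 pairs. With the replicate number as a block, 8, 4 and 6 ligands passed in E3, in E5 and between the clones, and the calls of Vegfd (-0.56, adjusted p = 0.07159) and Angpt2 (-0.48, adjusted p = 0.06217) between the clones were lost.

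The share of Vegfa among the VEGF ligands depends on the length used. Without division by length it was 64.7% in WT, 32.6% in E3 and 52.6% in E5, and with the length of the canonical transcript 50.5%, 21.5% and 38.4%, in the same order of the lines. Ligands whose neighbours within 1 Mb had a median past 0.5 on the log2 scale numbered 1 in E3, 0 in E5 and 1 between the clones. They numbered 0 in E3 and 0 between the clones at 5000 kb, and 1 in E5 and 0 between the clones at 250 kb, where Vegfc and Angpt1 had no tested neighbour. At 250 kb the ligand past 0.5 in E3 was Angptl2, with a median of 0.542 over 5 genes, and in E5 it was Vegfd, with 0.522 over 2 genes. Depth limits Pgf above all, at 3 to 18 counts per library.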

Other observations

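Other secreted angiogenic factors were also measured. Of 10 listed genes 7 were tested, 1 rose and 2 fell in E3, and 2 rose and 2 fell in E5, and without KO E3 replicate 3 these counts were 3 and 1 in E3 and 2 and 3 in E5. In E5, 1 rose without WT replicate 1 or 3 or KO E5 replicate 1 or 2, and 1 fell when any of 7 libraries was left out, all but KO E3 replicate 3 and KO E5 replicate 1. Sema3e, a guidance factor that repels vessel sprouts, fell in both clones, from 214 CPM in WT to 98.0 CPM in E3 and 74.4 CPM in E5, at log2 fold changes of -1.13 (edgeR adjusted p = 0.000582) and -1.52 (adjusted p = 9.62e-05). Egfl7, a matrix factor of vessel walls, rose by 1.11 in E3 and by 0.76 in E5. Apln, a ligand of the apelin receptor on sprouting vessels, rose in E5 from 18.5 to 44.7 CPM, at 1.27 (adjusted p = 0.00099).

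Among the markers of the line, the keratin genes Krt8 and Krt18 moved in opposite directions in the clones. Krt8 fell by 2.33 in E3 and rose by 0.95 in E5 on the log2 scale, and Krt18 fell by 1.08 and rose by 1.08. Vim rose by 0.40 in E3 (adjusted p = 0.0301) and by 0.66 in E5 (adjusted p = 0.00335), and Cdh2 passed in neither clone. Of 8 fibroblast and mural markers 5 were tested, 4 rose in E3 and 3 fell in E5. Pdgfrb, a receptor of mural cells, was at 1.32 CPM in WT, 5.56 CPM in E3 and 0.312 CPM in E5. Of the other mural markers, Acta2 did not pass in E3 (0.54, adjusted p = 0.0903), and Rgs5 had 0 counts in every library. Cspg4, which was not tested, had 5 to 10 counts in WT and 1 to 3 in E3. The summed level of these 8 genes, most of it from Col3a1, was 2690 to 3020 CPM in WT, 3550 to 4540 CPM in E3 and 3080 to 3410 CPM in E5.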
